A study of Mus musculus with 6 samples.

Results

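The granzymes and the cytotoxic granule genes examined here were 9 genes chosen by name: Gzma, Gzmb, Gzmc, Gzmk, Prf1, Nkg7, Srgn, Lamp1 and Serpinb9. They are 9 of the 35896 genes that the transcripts of the series could be assigned to. Gene-level values of 5 of them (Gzmb, Nkg7, Srgn, Lamp1 and Serpinb9) are in the deposited gene-level table, and the other 4 were taken from the summed counts of their transcripts. RNA-seq was run on naïve CD4+ T cells from C57BL/6 mice that had been stimulated and kept in Th9 polarizing medium for 48 h, with 3 samples of each genotype. Th9 cells are helper T cells that make IL-9. The Cul5 cKO cells came from Cul5 fl/fl CD4-Cre mice, in which Cre driven by CD4 regulatory sequence removes exons 9 to 11 of Cul5, and the WT cells, in the methods of the study, from Cul5 fl/fl littermates without Cre. Since this Cre acts during thymic development, Cul5 is also lost from CD8 T cells of these mice. Cells of both genotypes received plate-bound anti-CD3 (2 µg/ml), anti-CD28 (1 µg/ml), IL-4 (20 ng/ml), TGF-β (2.5 ng/ml) and anti-IFN-γ (10 µg/ml). Mice of both genotypes were 8 to 10 weeks old.

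Cytotoxic lymphocytes store granzymes, which are serine proteases, together with perforin in secretory lysosomes. When the granule fuses at the contact with a target cell, perforin opens its membrane and granzymes enter and cleave proteins that control cell death. Serglycin packs these cargoes, LAMP-1 and NKG7 lie in the granule membrane, and serpin B9 protects the killer from granzyme B that leaks. CD8 T cells and NK cells are the main users of this machinery, and helper T cells carry parts of it at lower levels.

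At this time point the members ranged from abundant to barely detected. Srgn and Lamp1, the matrix proteoglycan and the lysosomal membrane protein, were at 193.2 and 108.2 TPM (a share of all transcripts, corrected for transcript length) averaged over the 6 samples. Nkg7, Gzmb and Serpinb9 were at 9.15, 7.31 and 3.0 TPM, and Prf1 was at 0.541 TPM. Gzma, Gzmc and Gzmk had no more than 7 counts in any library. Of the 6 members with enough counts for a test, none passed an adjusted p of 0.05 between the genotypes, where 1.03% of the 12925 genes tested did (edgeR's quasi-likelihood test, Benjamini-Hochberg adjustment over all genes tested). Srgn had the strongest evidence for a difference, 1.75-fold higher in Cul5 cKO samples with adjusted p = 0.112, and Lamp1 was the only other tested member whose genotypes did not overlap.

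The promoters of 3 members are shown to set granule frame beside cargo: Lamp1 and Srgn, the tested members with no overlap between genotypes, and Gzmb, the granzyme with the most reads. They are 300-base windows from RefSeq on GRCm38.p6, from 250 bases before a gene's start to 50 bases after it, read 5′ to 3′ on the gene's strand. All 9 members had at least 1 such window. Capitals mark the letters searched on both strands: CACGTG (the E-box that the TFEB family of lysosomal gene regulators binds), TGACGTCA (CRE), TGANTCA (AP-1), TGTGGT (RUNX), and TTCNNNGAA (STAT, with 3 bases between its arms, and the same with 4 bases between them).
Gzmb, chr14:56262285-56262584, minus strand: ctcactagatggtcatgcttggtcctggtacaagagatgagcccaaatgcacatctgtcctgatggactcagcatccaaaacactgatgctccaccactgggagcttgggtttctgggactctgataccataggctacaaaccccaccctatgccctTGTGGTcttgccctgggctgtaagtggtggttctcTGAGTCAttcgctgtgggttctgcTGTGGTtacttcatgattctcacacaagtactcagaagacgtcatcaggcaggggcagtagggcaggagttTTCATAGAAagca
Srgn, chr10:62507708-62508007, minus strand: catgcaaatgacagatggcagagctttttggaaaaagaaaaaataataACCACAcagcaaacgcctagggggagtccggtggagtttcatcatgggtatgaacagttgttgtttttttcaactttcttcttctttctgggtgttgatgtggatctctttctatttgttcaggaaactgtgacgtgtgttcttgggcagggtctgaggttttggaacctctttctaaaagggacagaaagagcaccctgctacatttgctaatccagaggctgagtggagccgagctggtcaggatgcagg
Lamp1, chr8:13158911-13159210, plus strand: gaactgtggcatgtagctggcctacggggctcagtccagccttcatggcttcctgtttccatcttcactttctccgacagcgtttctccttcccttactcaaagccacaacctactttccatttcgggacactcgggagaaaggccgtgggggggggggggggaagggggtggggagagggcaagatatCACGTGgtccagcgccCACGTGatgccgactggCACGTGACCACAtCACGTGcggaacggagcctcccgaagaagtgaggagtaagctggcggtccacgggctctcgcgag
The Gzmb window held 1 AP-1 match, 2 RUNX matches and 1 STAT match with 3 bases between its arms. Among 32851 windows of the same length, 7.81% held at least 1 AP-1 match, 1.81% held at least 2 RUNX matches and 8.3% held that STAT match. The Lamp1 window held 4 E-box matches, which 0.0244% of the windows did, and 1 RUNX match, printed as its reverse complement ACCACA, that directly follows an E-box. RefSeq gives Srgn 2 windows. The start of the window shown lies 2 bases from that of the transcript with 95.7% of the gene's counts, and its only match was 1 RUNX match on the opposite strand, where 16.8% of the windows held at least 1. The other Srgn start lies 19690 bases away, and its window held no match. The Gzmb start in RefSeq lies 74 bases from the start of the transcript that was counted. These are matches of letters and say nothing of binding in these cells.

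Before the members are compared, 2 libraries need to be set apart. The deleted gene itself separated the genotypes: Cul5 was at 66.2 ± 2.67 CPM (counts scaled to a common library size with TMM factors) in WT and 12.6 ± 1.82 CPM in Cul5 cKO samples (SD, n = 3), at an edgeR adjusted p of 9.92e-04 (log2 fold change -2.39). The T cell label held, with 6 CD4 T cell markers summing to 1075.2 to 1156.3 CPM in WT and 952.3 to 986.3 CPM in Cul5 cKO samples. Of these markers 4 (Cd3d, Cd3e, Cd3g and Cd28) did not overlap and were lower in Cul5 cKO samples, as were 13.5% of all genes tested. Cd28 fell (log2 fold change -1.17, edgeR adjusted p = 0.0205), whereas Cd3d, Cd3e and Cd3g were not called (edgeR adjusted p = 0.271, 0.0987 and 0.112). Il9 was at 297.6 to 355.4 CPM in WT and 728.6 to 1021.0 CPM in Cul5 cKO samples. Library totals ran from 23111689 to 23454552 counts, except for WT replicate 3 with 3944803. In that library 3 counts, the limit that a count of 0 allows, correspond to 0.759 CPM, against 0.128 to 0.133 CPM in the others. Cul5 cKO replicate 2 carried mast cell and basophil markers (9 genes, 41.8 CPM summed, against 0.598 to 2.53 CPM in the other 5 libraries). It also carried myeloid markers (8 genes, 62.5 CPM against 5.52 to 10.9 CPM). Mpo and Elane, at 39.8 and 8.33 CPM there, made up most of the myeloid sum. Itgam, another gene of that list, was at 2.5 CPM there, below WT replicates 2 and 3 (5.93 and 4.81 CPM). Cd68 and Adgre1 were at 3.42 and 2.98 CPM there, against at most 3.29 and 2.09 CPM elsewhere, and Fcgr1 had no more than 1 count in any library. The 4 gamma-delta T cell markers summed to 14.2 CPM in Cul5 cKO replicate 2, against 7.51 to 10.4 CPM elsewhere. Of these, Tcrg-C2 was at 1.97 CPM there, below the 2.81 to 4.05 CPM of the WT samples. Cul5 cKO replicate 3 carried B cell markers (5 genes, 48 CPM against 6.47 to 19.2 CPM) and had 141 Cd8a counts against 4 to 39 elsewhere. NK cell markers were at or near 0 in every library: 3 of 5 (Ncr1, Klra4 and Klra8) had no count, and the sums were 0.131 to 0.506 CPM.

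Srgn (ENSMUSG00000020077, chr10:62493833-62527451 on GRCm38, minus strand) encodes serglycin, the proteoglycan whose sulphated chains hold granzymes and perforin in the granule and which mast cells and myeloid cells use in the same way. Its level was 66.8, 83.8 and 75.9 CPM in WT replicates 1, 2 and 3, and 93.8, 174.7 and 128.5 CPM in the Cul5 cKO replicates. All 3 Cul5 cKO samples lay above all 3 WT samples, and the highest value was in Cul5 cKO replicate 2, the library with mast cell, basophil and myeloid markers. The means were 75.5 ± 8.49 and 132.3 ± 40.6 CPM (SD, n = 3), and the log2 fold change was 0.81 (SE 0.214, 95% interval 0.31 to 1.31). The edgeR p was 0.0062 unadjusted and 0.112 adjusted, and the exact two-sided permutation test gave 0.1, the smallest p that 3 samples against 3 allow. Without Cul5 cKO replicate 2 the log2 fold change was 0.56, the edgeR adjusted p was 0.214 and the genotypes still did not overlap. Without Cul5 cKO replicates 2 and 3 it was 0.31 (edgeR adjusted p = 0.687), and on replicates 2 and 3 alone it was 0.91 (0.0278), in a fit that called 8.83% of the genes tested. Without Cul5 cKO replicate 1 it passed the threshold, at 1.01 with an edgeR adjusted p of 0.0485. DESeq2 called the gene on the same counts, at an adjusted p of 0.00183 (log2 fold change 0.81), where it called 5.36% of all genes tested. The part of the other cell types in the Srgn difference was not tested beyond leaving that library out. In bulk RNA, fewer cells of a type and less RNA per cell cannot be told apart.

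Transcript by transcript, Srgn was almost entirely 1 product. Srgn-201 held 95.7% of the gene's counts over the 6 libraries and Srgn-204 held 3.7%. The 3 genes of at least 1 CPM whose centred log2(CPM + 1) profile over the 6 samples lay nearest to that of Srgn were Inka1, Setbp1 and Il4, with root mean square differences of 0.0704, 0.0991 and 0.1 log2 units, where the median over 11614 genes was 0.494. Il4 encodes the cytokine that defines Th2 cells. Its level was 0.555, 0.606 and 0.506 CPM in WT and 0.869, 2.41 and 1.82 CPM in Cul5 cKO samples (log2 fold change 1.57, edgeR adjusted p = 0.122). Il4 was picked for its nearness to Srgn over these same samples, so its highest value in the same library is no separate observation. The Il4 value in WT replicate 3 lay below the 0.759 CPM of 3 counts in that library. Inka1 (0.512 to 2.72 CPM) and Il4 lay near 1 CPM, where the added 1 narrows log2 differences. Their log2 fold changes were 1.35 and 1.57, against 0.81 for Srgn, so their nearness rests in part on that scale.

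Lamp1 (ENSMUSG00000031447, chr8:13159161-13175338, plus strand) encodes LAMP-1, or CD107a, the lysosomal membrane protein that reaches the cell surface when granules are released. It was at 159.0, 139.2 and 150.8 CPM in WT and at 183.4, 170.9 and 159.6 CPM in Cul5 cKO replicates 1, 2 and 3. The groups did not overlap, but they nearly met, at 159.0 and 159.6 CPM. The means were 149.7 ± 9.95 and 171.3 ± 11.9 CPM (SD, n = 3), a 1.14-fold difference (log2 fold change 0.19, SE 0.0801, 95% interval 0.01 to 0.38, edgeR adjusted p = 0.222). Its highest value was in Cul5 cKO replicate 1, a library without the markers of other cells described above, and the log2 fold change was 0.20 without replicate 2 and 0.25 without replicate 3. Lamp1 shares 177 identical bases with a transcript of Grtp1, which had 91.1 counts in all against 19249.9 for Lamp1. Srgn and Lamp1 were the 2 tested members with no overlap between genotypes, both higher in Cul5 cKO samples, as were 14% of all genes tested. Without regard to direction 27.5% of all genes did not overlap. Srgn and Lamp1 were also the 2 with an unadjusted edgeR p under 0.05, which 21.3% of genes had and 10.9% had in that direction.

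**Figure D1:**
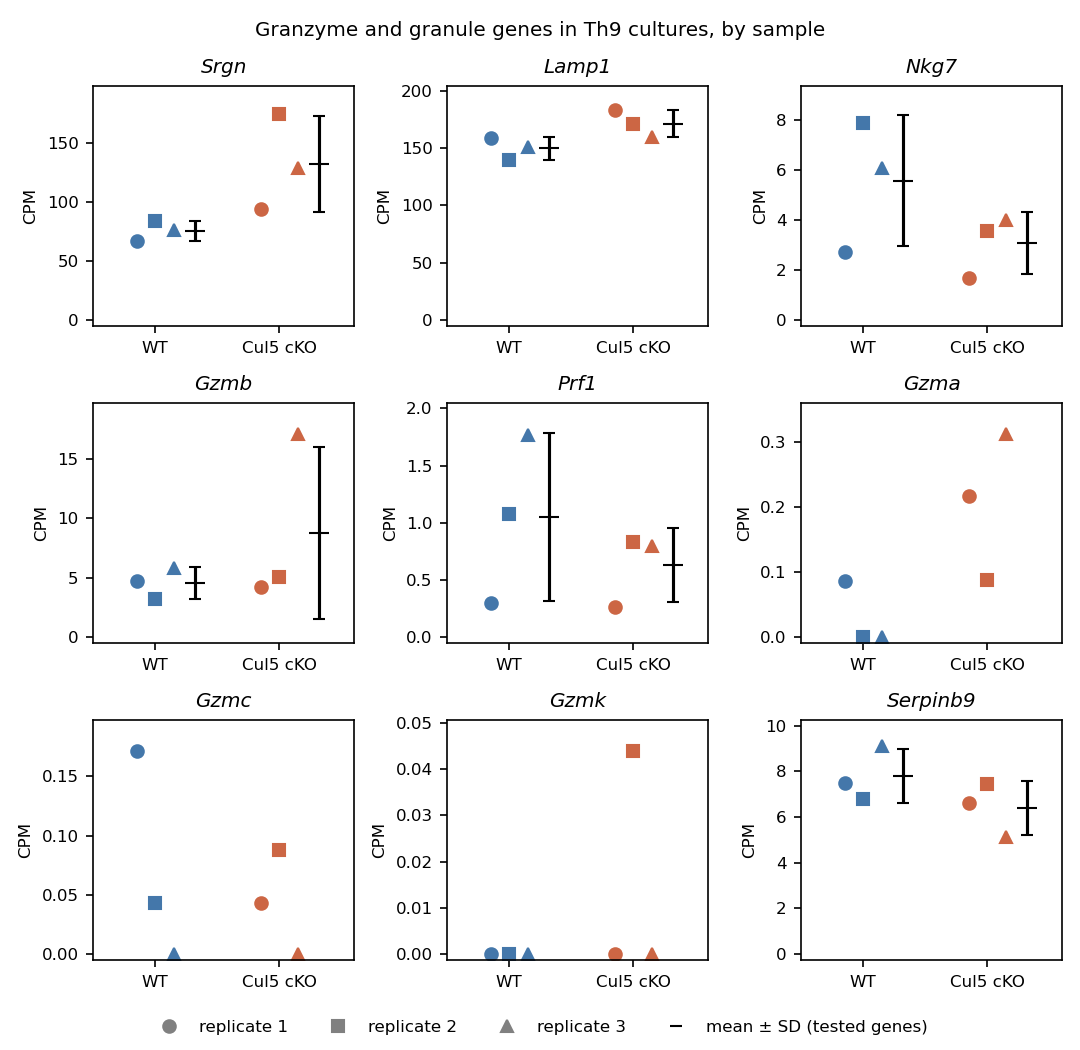
Level of the 9 genes in CPM (y axis, a separate linear scale for each gene) in WT (blue) and Cul5 cKO (orange) samples, 1 symbol per replicate, with bars for the mean ± SD of the 6 tested genes (n = 3). The Srgn and Lamp1 points do not overlap between genotypes, Gzmb is set apart by the single Cul5 cKO value of 17.1 CPM, and Gzma, Gzmc and Gzmk stay below 0.32 CPM.

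Nkg7 (ENSMUSG00000004612, chr7:43437073-43438249, plus strand) encodes a small protein of the granule membrane that is needed for granule release. Its values were 2.73, 7.87 and 6.07 CPM in WT and 1.69, 3.55 and 4.0 CPM in Cul5 cKO replicates 1, 2 and 3. Replicate 1 was the lowest in each genotype, and both genotypes overlapped through WT replicate 1. The means were 5.56 ± 2.61 and 3.08 ± 1.22 CPM (SD, n = 3), and the log2 fold change was -0.84 (SE 0.463, 95% interval -1.92 to 0.25, edgeR adjusted p = 0.345). With replicate 1 set against replicates 2 and 3 as a term of the edgeR fit, the log2 fold change was -0.85 and the adjusted p 0.0319, in a fit that called 13.1% of all genes tested. On replicates 2 and 3 alone it was -0.92 with an edgeR adjusted p of 0.0607. The labels name no batch that replicate 1 would belong to. The difference stayed below 0 when any 1 sample was left out, from -1.20 to -0.42.

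Gzmb (ENSMUSG00000015437, chr14:56258838-56262260, minus strand) encodes granzyme B, the protease that cuts after aspartate and activates caspases in the target. It was at 4.74, 3.16 and 5.82 CPM in WT and 4.17, 5.04 and 17.1 CPM in Cul5 cKO replicates 1, 2 and 3. Cul5 cKO replicates 1 and 2 lay within the WT range, and only replicate 3, the library with B cell markers and the most Cd8a, lay above it. The means were 4.57 ± 1.34 and 8.78 ± 7.24 CPM (SD, n = 3), and the log2 fold change was 1.0 (SE 0.567, 95% interval -0.32 to 2.33, edgeR adjusted p = 0.354). Without Cul5 cKO replicate 3 it was 0.06, with an edgeR adjusted p of 0.961. Without Cul5 cKO replicates 2 and 3 it was -0.09. The whole of the mean difference thus rested on 1 library. In that library Cd8a was at 6.27 CPM, against 0.565 to 1.71 CPM in the others, whereas Cd8b1, the other CD8 T cell marker, was at 5.38 CPM, within the WT range of 4.1 to 5.45 CPM. The part of CD8 T cells or B cells in its Gzmb level was not tested. Of the transcription factors of cytotoxic genes listed below, Tbx21, the T-box factor of cytotoxic and Th1 genes, was highest there, at 4.94 CPM against 0.427 to 3.16 CPM. Zeb2 and Zfp683 were also highest there. Eomes and Runx3 were highest in Cul5 cKO replicate 2 (13 and 67.4 CPM), and Prdm1, Id2, Hopx, Nfil3 and Tcf7 in other libraries.

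**Figure D2:**
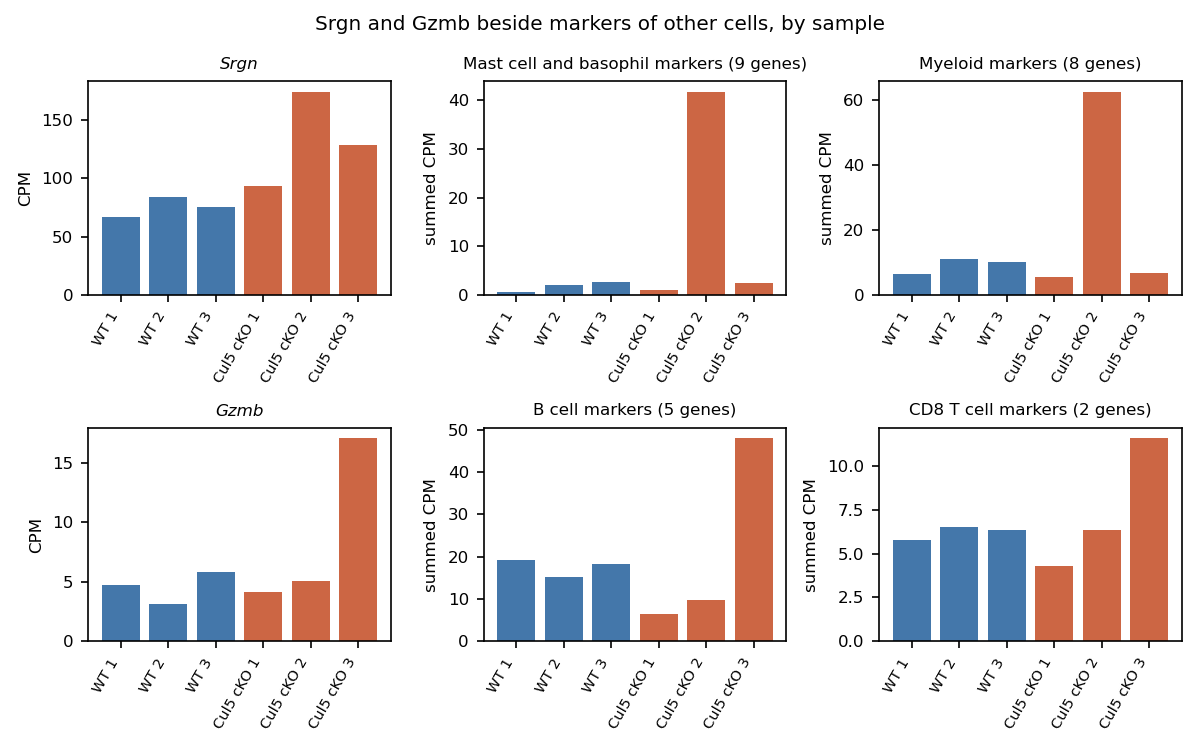
Srgn and Gzmb (CPM) and the summed CPM of mast cell and basophil, myeloid, B cell and CD8 T cell markers in each of the 6 samples, WT in blue and Cul5 cKO in orange, on linear axes from 0. The highest Srgn bar (174.7 CPM) is in the library with mast cell, basophil and myeloid markers, and the highest Gzmb bar (17.1 CPM) is in the library with B cell markers and raised Cd8a, where Cd8b1 was within the WT range.

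Prf1 (ENSMUSG00000037202, chr10:61297833-61304680, plus strand), which encodes the pore-forming perforin, passed the filter on low counts narrowly. Its counts were 7, 25 and 7 in WT and 6, 19 and 18 in Cul5 cKO replicates, or 0.299, 1.08 and 1.77 CPM against 0.261, 0.833 and 0.8 CPM. As for Nkg7, replicate 1 was the lowest in each genotype, and the groups overlapped. The log2 fold change was -0.48 (SE 0.688) with an edgeR adjusted p of 0.725. Its 95% interval, from -2.09 to 1.13, holds both a fall and a rise. The parts of low counts and of spread between samples in that width were not tested. Only 7.15% of the tested genes had a lower mean TPM than Prf1. Perforin is the member without which granzymes cannot enter a target cell. Its transcript was at 0.689 ± 0.449 TPM in WT and 0.393 ± 0.199 TPM in Cul5 cKO samples (SD, n = 3), far below the 144.1 and 242.2 TPM of the packing proteoglycan Srgn.

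The other granzymes among the members were close to the detection limit and were not tested. Gzma (ENSMUSG00000023132, chr13:113093825-113100981, minus strand), which encodes a granzyme that cuts after basic residues, had 2, 0 and 0 counts in WT and 5, 2 and 7 counts in Cul5 cKO replicates 1, 2 and 3. The summed counts were 2 and 14, a rate ratio of 5.17 with an exact 95% interval of 1.19 to 46.9 that covers counting error only. In CPM the groups met almost end to end, with 0.0854 in WT replicate 1 and 0.0876 in Cul5 cKO replicate 2, and a count of 0 in WT replicate 3 allows up to 0.759 CPM, more than any sample showed. Gzmc (ENSMUSG00000079186, chr14:56231441-56234656, minus strand), which lies next to Gzmb in the chymase and granzyme cluster of chromosome 14, had 5 counts in WT and 3 in Cul5 cKO samples (rate ratio 0.443, exact 95% interval 0.0688 to 2.28). Gzmk (ENSMUSG00000042385, chr13:113171608-113225908, minus strand), which encodes another granzyme that cuts after basic residues, had 1 count in all, in Cul5 cKO replicate 2, assigned to a transcript annotated for nonsense-mediated decay. No transcript of these granzymes had a match of at least 95% identity over 150 bases in another gene. The nearest of that length were Gzmb and Gzmc, 77.3% identical over 844 bases, and Gzmc and Gzmf, 85.2% identical over 508 bases. Shorter identical stretches, which reads of 50 bp could share, were not searched for.

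Serpinb9 (ENSMUSG00000045827, chr13:33003250-33017957, plus strand) encodes the cytosolic inhibitor of granzyme B. It was at 7.47, 6.79 and 9.11 CPM in WT and 6.60, 7.45 and 5.11 CPM in Cul5 cKO replicates 1, 2 and 3. The groups overlapped, and the lowest value was in Cul5 cKO replicate 3, the library with the highest Gzmb. The means were 7.79 ± 1.19 and 6.39 ± 1.18 CPM (SD, n = 3), and the log2 fold change was -0.26 (SE 0.199, 95% interval -0.72 to 0.21, edgeR adjusted p = 0.496). On the length-corrected scale, Serpinb9 and Gzmb were of the same order in 5 of the 6 samples. Gzmb was at 3.66 to 6.25 TPM and Serpinb9 at 2.84 to 3.68 TPM in those 5, whereas Cul5 cKO replicate 3 had 18.5 TPM of Gzmb and 2.13 TPM of Serpinb9.

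**Figure D3:**
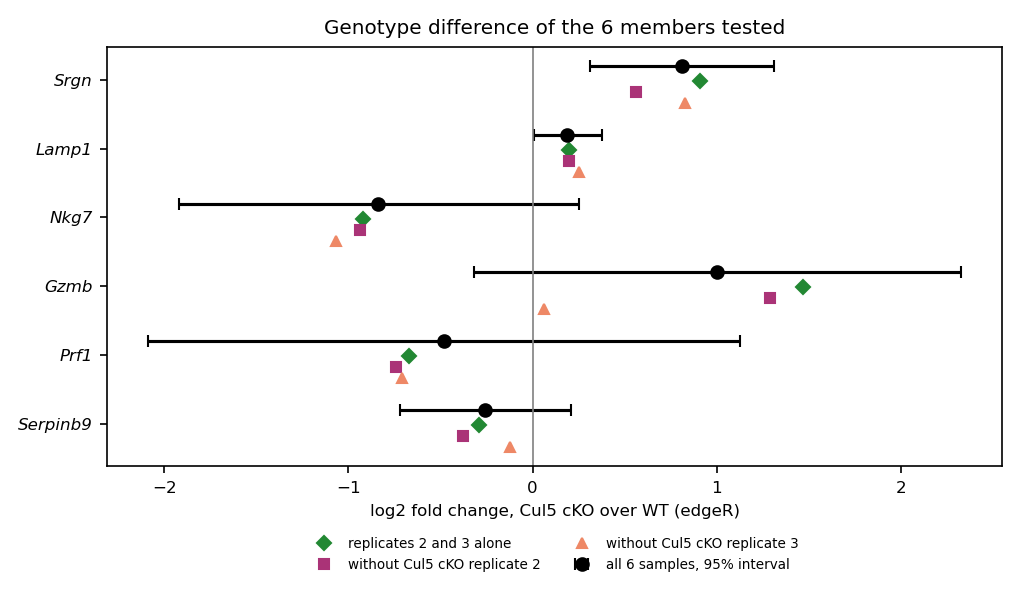
Log2 fold change (x axis, Cul5 cKO over WT) of the 6 tested members from edgeR, with 95% intervals for all 6 samples (black), and the values on replicates 2 and 3 alone, without Cul5 cKO replicate 2 and without Cul5 cKO replicate 3. The interval lies above 0 for Srgn (0.31 to 1.31) and Lamp1 (0.01 to 0.38) before adjustment, and the Gzmb value moves from 1.0 to 0.06 without Cul5 cKO replicate 3.

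Set in order by level, the members fell into 3 steps. Averaged over all samples, 94.4% of tested genes had a lower TPM than Srgn and 88.8% a lower TPM than Lamp1. Nkg7 (36.8%), Gzmb (33.3%) and Serpinb9 (22.6%) came next, and their ranges over samples touched, with 3.44 to 16.9 TPM for Nkg7, 3.66 to 18.5 TPM for Gzmb and 2.13 to 3.68 TPM for Serpinb9. Prf1, Gzma, Gzmc and Gzmk formed the lowest step, at 0 to 1.13 TPM. Within the top step, Srgn (123.7 to 320.6 TPM) and Lamp1 (97.2 to 125.5 TPM) overlapped by a single Lamp1 value, although Srgn was above Lamp1 in each of the 6 samples. Of the 6 tested members, 3 had a log2 fold change above 0 and 3 below it, with a median of -0.03, and the median over all tested genes was -0.01.

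The wider pathway was followed in 8 lists of other granule genes. Among the proteases that process granzymes and perforin (3 tested), Ctsc rose. Ctsc (chr7:88278085-88310888, plus strand) encodes cathepsin C, the peptidase that removes the inhibitory dipeptide from granzyme precursors. It was at 88.0, 97.7 and 94.1 CPM in WT and 128.5, 135.8 and 135.3 CPM in Cul5 cKO samples, with wide separation and a small spread in both groups. The log2 fold change was 0.51 (SE 0.067, edgeR adjusted p = 0.0212), in the direction in which 0.611% of all genes were called. Without Cul5 cKO replicate 2 it was 0.51 with an edgeR adjusted p of 0.0874, and without replicate 3 it was 0.51 with 0.133. The call was also lost without WT replicate 2 (0.55, edgeR adjusted p = 0.0885) and without WT replicate 3 (0.52, 0.126). Ctsh, which has a similar role, was at 0.261 to 3.91 CPM with its highest value in Cul5 cKO replicate 3 (log2 fold change 1.45, edgeR adjusted p = 0.379), and Ctsl had a log2 fold change of 0.03. With 3 genes tested, the list's median log2 fold change of 0.51 is the value of Ctsc itself.

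Among the intracellular serpins, 9 were listed, 4 had a count and 3 were tested. Serpinb6b, a relative of the protease inhibitor serpin B6 that lies at chr13:32965209-32979067 in the same serpin cluster as Serpinb9, fell. It was at 12.5, 17.2 and 18.2 CPM in WT and 4.39, 5.35 and 5.51 CPM in Cul5 cKO samples, so that every WT sample had more than any Cul5 cKO sample, as for 13.5% of all genes tested. The log2 fold change was -1.63 (SE 0.184, edgeR adjusted p = 0.0159), in the direction in which 0.418% of all genes were called. Without Cul5 cKO replicate 2 it was -1.67 (edgeR adjusted p = 0.0566) and without replicate 3 it was -1.69 (0.0898). Without WT replicate 2 or WT replicate 3 it was -1.57 or -1.55, with edgeR adjusted p of 0.0903 or 0.0816. Its nearest relative in sequence, Serpinb6c, was 92.7% identical over 234 bases. Serpinb1a, an inhibitor of neutrophil elastase, was at 0.683, 0.303 and 0 CPM in WT and 2.17, 2.37 and 0.845 CPM in Cul5 cKO samples (log2 fold change 2.06, edgeR adjusted p = 0.142). Its groups did not overlap, in the other direction from Serpinb6b, as for 14% of all genes tested. Serpinb6a had a log2 fold change of -0.16. The difference of Serpinb9 from Serpinb6b was not tested.

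The machinery that moves and fuses granules gave no called gene. Of 15 such genes listed, 13 were tested, with a median log2 fold change of 0.00. An unadjusted edgeR p under 0.05 was reached by 4 of them, and by 21.3% of all genes tested. None of the 13 was called by edgeR. The DESeq2 test on the same counts called none of them either. Unc13d, which encodes Munc13-4, the priming factor of granule fusion, was at 110.7, 118.4 and 111.1 CPM in WT and 126.0, 125.6 and 130.4 CPM in Cul5 cKO samples. Its groups did not overlap, as for 14% of all genes tested in that direction (log2 fold change 0.17, edgeR adjusted p = 0.184). Rab27a, the GTPase that docks granules, had a log2 fold change of -0.28 (edgeR adjusted p = 0.192), and Lyst, the lysosomal trafficking regulator lost in Chediak-Higashi syndrome, had -0.69 (0.22). Coro1a, the actin regulator with the highest mean TPM of the list, was at -0.04 (0.697). Among 6 genes of the granule membrane and of sorting, none was called, and the median was 0.14. Calr, the chaperone calreticulin with the highest TPM of that list, was at 0.35 (edgeR adjusted p = 0.151). Cd63, a tetraspanin of secretory lysosomes that mast cells and basophils also carry, was at 18.4 CPM in Cul5 cKO replicate 2 and at 0.434 to 1.11 CPM in the other 5 libraries, the same library in which Srgn was highest.

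**Figure D4:**
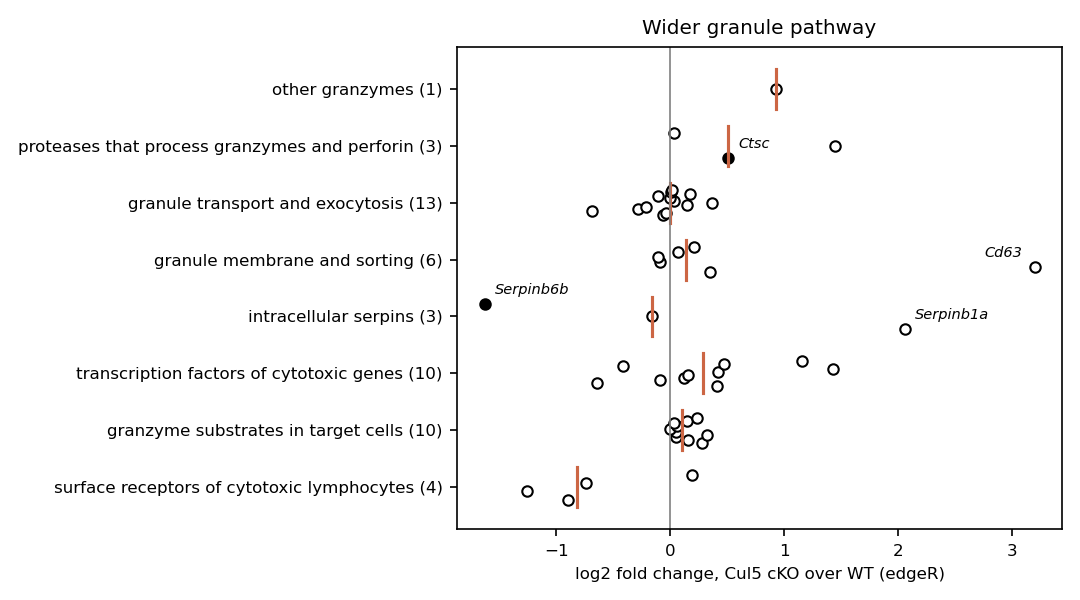
Log2 fold change (x axis, Cul5 cKO over WT, edgeR) of each tested gene in 8 lists of the granule pathway, with the number tested in brackets. Filled points passed an adjusted p of 0.05, and orange lines are list medians. Ctsc at 0.51 and Serpinb6b at -1.63 are the filled points, and Cd63 and Serpinb1a are the open points farthest to the right.

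Of the transcription factors known for cytotoxic genes, 10 were tested and none was called by edgeR, with a list median of 0.29. An unadjusted edgeR p under 0.05 was reached by 3 of them, and by 21.3% of all genes tested. Runx3, which drives the cytotoxic programme in CD8 T cells, was at 46.7, 49.3 and 44.0 CPM in WT and 57.5, 67.4 and 63.0 CPM in Cul5 cKO samples. The groups did not overlap, as for 14% of all genes tested in that direction. The log2 fold change was 0.42 (SE 0.0825) and the edgeR adjusted p was 0.0687. DESeq2 gave an adjusted p of 0.00993, where it called 5.36% of all genes tested and edgeR 1.03%. Hopx, a homeodomain cofactor of effector T cells, was at 4.01, 4.46 and 4.30 CPM in WT and 2.35, 2.59 and 3.25 CPM in Cul5 cKO samples. Its groups also did not overlap, as for 13.5% of all genes tested in that direction (log2 fold change -0.64, edgeR adjusted p = 0.161). Tcf7, the factor of naïve and memory T cells with the highest TPM in the list, had a log2 fold change of -0.41 (edgeR adjusted p = 0.234). The other granzymes numbered 6, of which 2 had a count and 1 was tested. Gzmm, a granzyme of NK cells, had 13, 9 and 1 counts in WT and 23, 21 and 14 counts in Cul5 cKO samples. Scaled to library size, it was at 0.555, 0.389 and 0.253 CPM against 0.999, 0.92 and 0.622 CPM. The log2 fold change was 0.93 (SE 0.384, edgeR adjusted p = 0.222). Its groups lay close, at 0.555 and 0.622 CPM, without overlap, as for 14% of all genes tested in that direction. The WT replicate 3 value lay below the 0.759 CPM of 3 counts in that library, which exceeds the value of Cul5 cKO replicate 3.

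Proteins that granzymes cleave in a target cell were expressed by these T cells themselves. All 10 listed were tested, none was called by edgeR or DESeq2, and the list median was 0.10. Parp1 (log2 fold change 0.15), Set (0.24) and Apex1 (0.28) did not overlap between genotypes, were higher in Cul5 cKO samples and had an unadjusted edgeR p under 0.05, with edgeR adjusted p of 0.232, 0.138 and 0.154. Of all genes tested, 14% did not overlap and were higher, and 10.9% were higher with an unadjusted edgeR p under 0.05. Set and Apex1 encode parts of a complex that granzyme A cleaves. Among 7 surface receptors of cytotoxic lymphocytes, 4 were tested and none was called by edgeR. Their median log2 fold change was -0.82, where that over all tested genes was -0.01. The 4 values ran from -1.26 to 0.19, and only 1 of these receptors did not overlap between genotypes. Cd226, the adhesion receptor DNAM-1 and the receptor with the highest TPM, was at 21.3, 29.1 and 31.4 CPM in WT and 13.3, 13.5 and 16.5 CPM in Cul5 cKO samples. The genotypes did not overlap, as for 13.5% of all genes tested in that direction. The log2 fold change was -0.90 (SE 0.167, edgeR adjusted p = 0.0622). DESeq2 called Cd226 with an adjusted p of 3.00e-04, where it called 5.36% of all genes tested and edgeR 1.03%. Klrg1, a receptor of effector cells, had no count in any library.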

How the data were processed

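Total RNA was poly-A selected and sequenced. The authors quantified transcripts with kallisto 0.46.2 and deposited estimated counts and TPM for 119414 transcripts per sample, and a gene-level table of log2 CPM values for 11242 genes, made with edgeR 3.34.0 per the labels. That table also holds 2 columns of their own comparison (fold changes and p-values), which were not used. Here, estimated counts and TPM were summed by gene with GENCODE vM21 (GRCm38), 97.7% of transcripts matching. Counts were rounded and tested in R 4.3.3 with edgeR 4.0.16 (filterByExpr, TMM, quasi-likelihood test, Benjamini-Hochberg adjusted p under 0.05) over 12925 genes, after a check on simulated counts. CPM use TMM-scaled library sizes. Totals per library were 3944803 to 23454552 counts. Alternatives used DESeq2 1.42.0 and limma 3.58.1, the latter on log2(TPM + 1), log2(TPM + 0.1) and the deposited log2 CPM. Exact permutation tests were two-sided. Transcripts were compared with blastn 2.17.0 (at least 95% identity over 150 bases counted as near-identical). Promoter windows came from RefSeq. Nothing in the labels says whether replicates were separate mice, so p-values measure the spread between these samples, which may be technical. Named genes were all 9 members, Cul5, the list genes that were called or that did not overlap with an unadjusted p under 0.05, the gene of highest TPM in each list, and the 3 genes most like the member with the lowest p. The members and lists were chosen with earlier results of these data known. Ctsh, Rab27a, Lyst, Cd63, Serpinb6a, Tbx21, Zeb2, Zfp683, Eomes, Prdm1, Id2, Nfil3, Ctsl, Klrg1 and the single marker genes were named after their values were seen. A gene that met the naming rule is not reported here.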

Additional observations from a re-analysis of the deposited data

How the results depend on the processing

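The shallow WT replicate 3 and 3 samples per genotype limit what could be seen of Prf1, Gzma, Gzmc and Gzmk, and the last 3 were not tested. Of the 303 values recomputed under an alternative, 227 kept their direction and side of the threshold or stayed within 1.5 times. Settings without a sample also test fewer samples, and for the other changes below the cause was not tested. Leaving out each sample in turn gave log2 fold changes of 0.06 to 1.35 for Gzmb, -1.06 to -0.12 for Prf1, -1.20 to -0.42 for Nkg7, 0.56 to 1.01 for Srgn, 0.15 to 0.25 for Lamp1 and -0.38 to -0.12 for Serpinb9. Gzmb turned to -0.09 without Cul5 cKO replicates 2 and 3 (an alternative chosen after seeing the data), and Serpinb9 to 0.03 when the libraries were thinned to the shallowest. Srgn passed the threshold with DESeq2 (0.81, adjusted p = 0.00183), with a replicate block (0.77, edgeR adjusted p = 0.0138), with replicate 1 as a term (0.77, 0.016), on replicates 2 and 3 alone (0.91, 0.0278) and without Cul5 cKO replicate 1 (1.01, 0.0485), and its adjusted p over all alternatives ran from 0.00183 to 0.687. Nkg7 passed it with replicate 1 as a term (-0.85, edgeR adjusted p = 0.0319). The number of genes called, 133, became 693 with DESeq2, 228 with no filter, 61 with counts scaled from TPM, 42 with limma on the authors' log2 CPM, 27 or 30 when limma was run with log2(TPM + 1) or with log2(TPM + 0.1), 2753 at an unadjusted p, 848 (6.56% of those tested) with the replicate block, 1688 with replicate 1 as a term, 1153 on replicates 2 and 3 alone, 2 to 316 when each sample was left out, and 0 without Cul5 cKO replicates 2 and 3. Members called, 0, became 1 with DESeq2, the replicate block and replicates 2 and 3 alone, 2 at an unadjusted p and with replicate 1 as a term, and 0 to 1 with a sample left out. The call of Ctsc was lost, leaving 0 processing proteases, with counts scaled from TPM, limma on each of its 3 scales and thinned libraries, and that of Serpinb6b, leaving 0 serpins, with limma on both TPM scales. Each was lost without WT replicate 2, WT replicate 3, Cul5 cKO replicate 2 or Cul5 cKO replicate 3, so that both lists ran from 0 to 1. Serpins called were 2 at an unadjusted p, with the block and with the term. At an unadjusted p, which 21.3% of all genes tested passed, 1 other granzyme, 4 exocytosis genes, 1 granule membrane gene, 3 transcription factors, 4 substrates and 1 receptor passed. With the block these counts were 1 for each of exocytosis, granule membrane, transcription factors, substrates and receptors, with the term 1, 1, 3, 3 and 2, and on replicates 2 and 3 alone 1, 1, 2, 1 and 1. DESeq2 called 1 transcription factor and 1 receptor, library size alone and no filter 1 receptor each. With a sample left out, exocytosis, transcription factor and receptor counts ran from 0 to 1. Same-numbered samples deviated together with correlations of 0.37, 0.206 and 0.0245 over 12925 genes, and the third WT sample correlated best with another number, so the numbers were not taken to pair samples. Counts of Gzmb, Gzmc and Serpinb9 with near-identical copies added were not run, because no gene reached that identity.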
